A study of Mus musculus with 16 samples.

Results

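The 10 genes described here encode proteins of ER-associated degradation (ERAD), the pathway that clears misfolded proteins from the endoplasmic reticulum (ER). They were chosen by symbol and not by their values, and are the 3 derlins (Derl1, Derl2 and Derl3), Herpud1, Sel1l, Syvn1, the 3 EDEM genes (Edem1, Edem2 and Edem3) and Os9. All 10 were among the 25105 genes listed for mouse islet cells, and all 10 passed the filter on low values in each comparison below.

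The cells were dispersed pancreatic islet cells of adult Grp78 flox/flox mice, whose Grp78 (gene symbol Hspa5) is removed by Cre recombinase. The 4 groups, of 4 libraries each, were Ad-LacZ (control adenovirus with DMSO, the solvent), Ad-Cre (adenovirus carrying Cre, with DMSO), and each virus with inhibitor in place of DMSO (Ad-LacZ + JNK inhibitor, Ad-Cre + JNK inhibitor). The inhibitor was JNK-IN-8, which blocks all JNK isoforms and was added when the cultures began. Every group carried the floxed alleles, received a virus and was kept for 72 hours in 15 mM glucose. Islets were prepared 4 times, as F1, M1, M2 and F2, and each preparation gave 1 library to every group. The labels name 2 animals for a preparation. The adenoviral Cre was not restricted to a cell type.

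During ERAD, a misfolded glycoprotein in the ER lumen is first marked by mannose trimming, for which the EDEM proteins are known. The lectin OS9 reads the trimmed glycan and delivers the substrate to SEL1L, the adaptor of the membrane ubiquitin ligase SYVN1, also called HRD1. Derlins help to move the substrate across the membrane, HERPUD1 organizes the complex, and the ATPase p97 pulls the ubiquitinated protein into the cytosol for the proteasome. β cells fold large amounts of proinsulin, and ERAD is the route by which misfolded proinsulin leaves their ER. Many ERAD genes are known targets of the unfolded protein response through ATF6 and XBP1, which act on the ER stress response elements ERSE and ERSE-II.

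The promoters of 3 of the genes held such an element and are shown for that reason, with that of Sel1l, a gene that rose with Ad-Cre and had none. Windows reaching from 250 bases before to 50 bases after the start site (RefSeq, GRCm38.p6) matched 9 of the 10 genes. Derl1 had no entry and Derl2 had 2. Both strands were searched for ERSE (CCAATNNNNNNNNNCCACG) and ERSE-II (ATTGGNCCACG). The 250 bases before each start site follow, read 5′ to 3′ in the direction of the gene, with capitals marking the match.
Derl3, chr10:75893148-75893397, plus strand: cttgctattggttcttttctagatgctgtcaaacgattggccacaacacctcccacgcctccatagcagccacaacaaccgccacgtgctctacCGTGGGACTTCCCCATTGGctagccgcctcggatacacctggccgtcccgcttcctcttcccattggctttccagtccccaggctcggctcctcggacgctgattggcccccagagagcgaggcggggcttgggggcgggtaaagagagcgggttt
Syvn1, chr19:6046326-6046575, plus strand: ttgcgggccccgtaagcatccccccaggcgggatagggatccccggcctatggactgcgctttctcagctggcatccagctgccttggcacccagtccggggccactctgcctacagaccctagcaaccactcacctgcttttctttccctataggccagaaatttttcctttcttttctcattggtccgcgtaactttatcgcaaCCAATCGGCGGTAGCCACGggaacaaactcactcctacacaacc
Herpud1, chr8:94386179-94386428, plus strand: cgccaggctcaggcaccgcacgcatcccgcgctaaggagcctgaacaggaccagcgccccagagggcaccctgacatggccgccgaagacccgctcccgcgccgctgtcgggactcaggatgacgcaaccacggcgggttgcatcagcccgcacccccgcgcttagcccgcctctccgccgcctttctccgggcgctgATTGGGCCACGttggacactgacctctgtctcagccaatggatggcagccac
Sel1l, chr12:91849158-91849407, minus strand: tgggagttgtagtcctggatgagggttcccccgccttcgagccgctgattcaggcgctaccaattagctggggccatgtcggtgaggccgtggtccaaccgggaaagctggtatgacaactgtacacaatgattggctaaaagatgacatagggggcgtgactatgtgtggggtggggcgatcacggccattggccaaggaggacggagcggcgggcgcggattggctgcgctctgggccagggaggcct
The ERSE of Derl3 lay on the reverse strand, 156 to 138 bases upstream of the start site, so the capitals show its reverse complement. That of Syvn1 lay on the forward strand, 44 to 26 bases upstream, and the ERSE-II of Herpud1 on the forward strand, 52 to 42 bases upstream. ERSE occurred in 39 of 32851 promoter windows in the table (0.119%) and ERSE-II in 12 (0.0365%). Among 43 other ERAD genes with a window, Creld2 held an ERSE and Dnajb11 an ERSE-II. The shorter letters TGACGTG, the core of the element bound by XBP1, were in 0 of the 9 members' windows, those of 4 of the 43 other ERAD genes and 661 windows in all (2.01%). CCACG, which is also the last 5 letters of both ERSE and ERSE-II, was in a window of all 9 genes, of 25 of the 43 other ERAD genes and in 32.8% of all windows. A match describes the letters only and was not tested as a binding site.

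Expression was given as reads per kilobase per 1000000 reads (RPKM), a level scaled to gene length and library size. The low values rose in steps of whole reads, from which depth in units of 1000000 reads was 15.7 to 23.0 in Ad-LacZ, 14.3 to 23.8 in Ad-Cre, 21.2 to 25.5 in Ad-LacZ + JNK inhibitor and 7.72 to 20.8 in Ad-Cre + JNK inhibitor. The lowest was Ad-Cre + JNK inhibitor F2, the 1 library whose column header carries another run code and lane. Hspa5, the targeted gene, had 395 to 483 RPKM in Ad-LacZ and 1107 to 1598 RPKM in the libraries labelled Ad-Cre, so the total level of the gene goes against the label of a knockdown. The study reported reduced Grp78 mRNA by qPCR on parallel aliquots of the sequenced samples, and partly reduced GRP78 protein by immunoblot. Neither was analysed here. RPKM per gene cannot show whether the floxed exons were lost, so every direction below is that of the libraries labelled Ad-Cre, called Ad-Cre for short. Hsp90b1, another ER chaperone, had means of 548 ± 70.6 and 1821 ± 534 RPKM (SD, n = 4 each). The 8 β cell markers summed to between 33139 and 84105 RPKM over the 16 libraries, most of it Ins1 and Ins2. The 10 acinar markers summed to between 2.15 and 12.5 RPKM, with Cela2a at 0 in 3 of the 4 groups. These are bulk values, in which fewer cells of a type and less RNA per cell cannot be told apart.

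The first comparison asked how ERAD genes differ after Cre. Of the 10 genes, 5 were higher in Ad-Cre than in Ad-LacZ at an adjusted p under 0.05 and a fold change above 1.5: Derl3, Herpud1, Sel1l, Syvn1 and Edem1. Of all 11590 genes tested, 4.08% passed this adjusted criterion in the same direction. The same 5 genes passed at an unadjusted p under 0.05 with that fold change, as did 5.09% of all genes. None was lower. All 10 log2 fold changes were positive, as were 49.5% over all genes, and their median was 0.65 against a median of -0.00 over all genes. In 7 of the 10, each Ad-Cre library lay above each Ad-LacZ library in RPKM, an arrangement that 11.8% of all genes showed.

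Among the derlins, Derl3 moved from the lowest level to the highest. The gene lies on chromosome 10 from 75893413 to 75895941 (GRCm38) and had 2.22, 2.24, 1.13 and 2.08 RPKM in Ad-LacZ F1, M1, M2 and F2, and 60.4, 60.5, 108 and 146 RPKM in the matching Ad-Cre libraries. Every Ad-Cre value was far above every Ad-LacZ value, and M2 and F2 were the highest. The mean was 1.92 ± 0.527 RPKM in Ad-LacZ and 93.7 ± 41.4 RPKM in Ad-Cre (SD, n = 4), and their ratio was 48.8. Its log2 fold change was 4.93 (SE 0.26, limma's adjusted p = 6.03e-05), the second smallest p over all genes. This fold change is on the log2(RPKM + 1) scale, which understates low genes, and was 5.48 with a pseudocount of 0.1. In Ad-LacZ the level rested on 52 to 99 reads per library, and in Ad-Cre on 1716 to 6824.

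Derl1 and Derl2, the other derlins, had smaller differences. Derl1 had 18.7, 17.6, 17.3 and 13.6 RPKM in Ad-LacZ and 20.2, 20.04, 24.8 and 26.7 RPKM in Ad-Cre, in the same order of preparations. The groups did not overlap, with log2 fold changes within preparations from 0.18 in F1 to 0.85 in F2. The log2 fold change of Derl1 was 0.42 (SE 0.13, limma's adjusted p = 0.0528, or 0.0332 when preparations were blocked), a fold of 1.34 that stayed under 1.5. Derl2 had 13.0 to 16.8 RPKM in Ad-LacZ and 14.9 to 20.4 RPKM in Ad-Cre, which overlapped, and a log2 fold change of 0.18 (95% interval -0.14 to 0.49). An exon of Derl2 overlaps Mis12 on the opposite strand, and whether the counting used strand is not given in the sources used here. Mis12 had 13.8 to 15.0 RPKM in Ad-LacZ and 16.3 to 21.5 RPKM in Ad-Cre, with a log2 fold change of 0.38 (SE 0.10, limma's adjusted p = 0.0371).

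**Figure D1:**
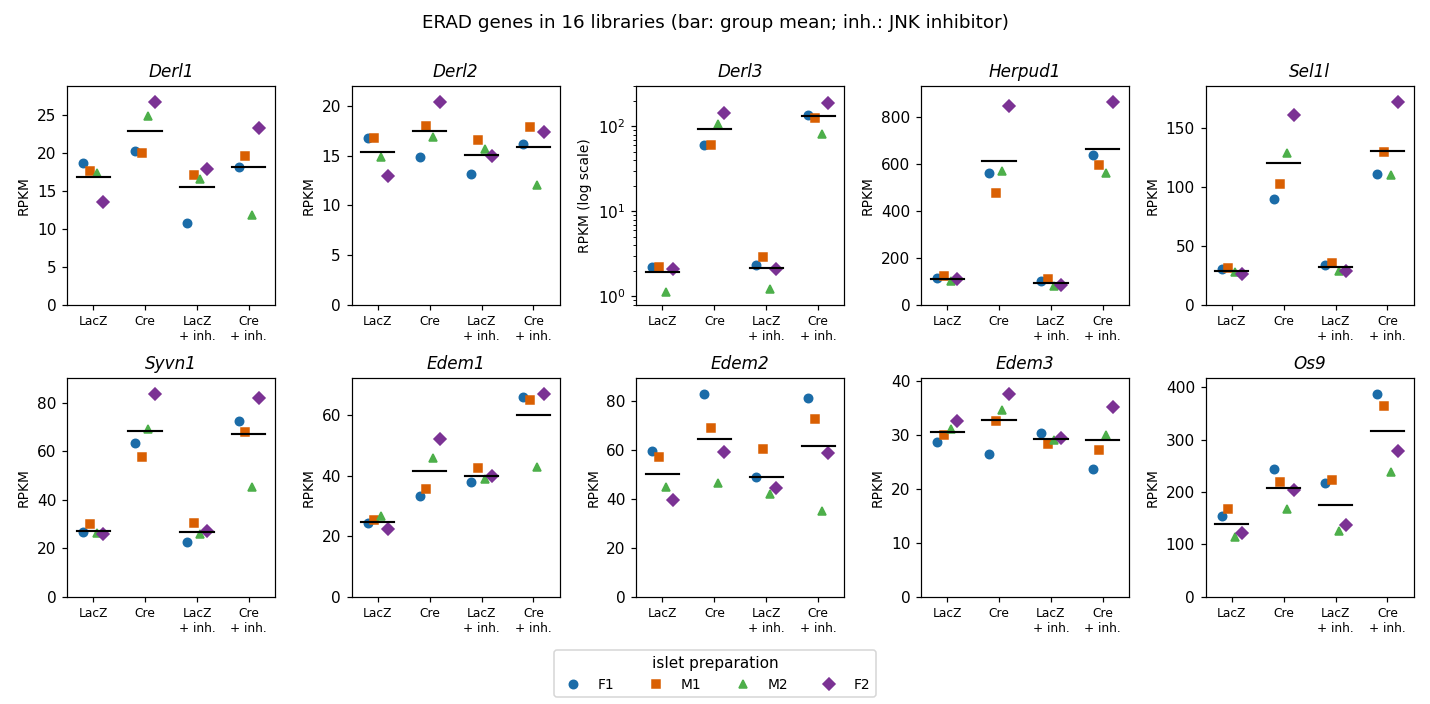
RPKM of the 10 ERAD genes in each library, by treatment (LacZ, Cre and each with JNK inhibitor, inh.), with symbols for the 4 islet preparations and a bar at the group mean; Derl3 is on a log axis and the other axes start at 0. The Derl3 libraries of Ad-LacZ lie between 1.13 and 2.24 RPKM and those of Ad-Cre between 60.4 and 146 RPKM, while the Edem1 mean is higher in both inhibitor groups than in the matching group without inhibitor.

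Herpud1, a membrane protein of the ligase complex that is itself short-lived, rose next most. It had 114, 121, 101 and 107 RPKM in Ad-LacZ F1, M1, M2 and F2, and 558, 473, 569 and 845 RPKM in Ad-Cre. The lowest Ad-Cre library was 473 RPKM and the highest Ad-LacZ library 121 RPKM. The log2 fold change of Herpud1 was 2.42 (SE 0.19, limma's adjusted p = 0.000482), a fold of 5.35.

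Sel1l and Syvn1 encode the adaptor and the ligase of 1 complex. Sel1l had 30.1, 31.3, 28.0 and 26.0 RPKM in Ad-LacZ and 89.2, 102, 128 and 161 RPKM in Ad-Cre. Its log2 fold change was 1.99 (SE 0.16, limma's adjusted p = 0.000528), a fold of 3.96. Syvn1 had 26.5, 29.97, 26.3 and 25.7 RPKM in Ad-LacZ and 63.3, 57.5, 69.4 and 83.6 RPKM in Ad-Cre. Syvn1 had a log2 fold change of 1.29 (SE 0.13, limma's adjusted p = 0.00134), a fold of 2.45. Both genes stood at nearly the same level in Ad-LacZ, and neither overlapped between groups. Exons of Syvn1 overlap Mrpl49 on the opposite strand. Mrpl49 itself had 19.996 to 21.2 RPKM in Ad-LacZ and 18.7 to 30.3 RPKM in Ad-Cre, with a log2 fold change of 0.18 (SE 0.21, limma's adjusted p = 0.588).

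Of the EDEM genes, Edem1 was the only one to pass the criterion. It had 24.4, 25.5, 26.8 and 22.2 RPKM in Ad-LacZ and 33.3, 35.5, 45.7 and 52.0 RPKM in Ad-Cre, with no overlap. Its log2 fold change was 0.71 (SE 0.12, limma's adjusted p = 0.00778), a fold of 1.63. Without replicate F2, in which the difference was highest, the log2 fold change of Edem1 was 0.57 and limma's adjusted p 0.0665. Edem2 had 59.5, 57.1, 44.7 and 39.6 RPKM in Ad-LacZ and 82.6, 69.0, 46.3 and 59.0 RPKM in Ad-Cre. Edem2 was higher with Ad-Cre in all 4 preparations while the groups overlapped, with a log2 fold change of 0.34 (95% interval -0.25 to 0.93; limma's adjusted p = 0.408, or 0.0547 blocked by preparation). Edem3 had 28.8 to 32.7 RPKM in Ad-LacZ and 26.5 to 37.6 RPKM in Ad-Cre, and its log2 fold change was 0.08 (95% interval -0.15 to 0.32).

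Os9, the lectin, was the most abundant member in Ad-LacZ, with 154, 167, 114 and 121 RPKM, and had 245, 218, 168 and 203 RPKM in Ad-Cre. Each Ad-Cre library was above each Ad-LacZ library, but the lowest, 168 RPKM, was close to the highest Ad-LacZ library, 167 RPKM. The log2 fold change of Os9 was 0.58 (SE 0.23, limma's adjusted p = 0.118). The differences within preparations were alike, 0.42 to 0.75, and with the preparation as a block limma's adjusted p was 0.00665. The fold of Os9 was just under 1.5, so Os9 was not called in either fit. With the block, 5 members were called, as were 5.57% of all genes in this direction.

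Marker sums of other cell types differed among the same libraries, without overlap for macrophages and with overlap for the others given here. The 6 macrophage markers, all in the table, summed to 52.5 to 59.4 RPKM in Ad-LacZ and 60.0 to 116 RPKM in Ad-Cre. The 4 fibroblast markers summed to 23.5 to 105 and 21.8 to 643 RPKM. The 4 of 5 plasma cell markers in the table summed to 1.86 to 14.0 and 1.54 to 221 RPKM. Among the 8 β cell markers, Ucn3 had 173 to 348 RPKM in Ad-LacZ and 21.6 to 129 RPKM in Ad-Cre. Mafa had 285 to 508 and 52.7 to 225 RPKM, and Slc2a2 73.2 to 130 and 18.3 to 68.9 RPKM. These genes were lower in Ad-Cre without overlap, while Ins1, Ins2, Iapp, Pdx1 and Nkx6-1 overlapped. The part of these markers and sums in the rise of the ERAD genes was not tested. Derl3 had 60.4 RPKM in Ad-Cre F1 and 60.5 RPKM in Ad-Cre M1, where Igkc, a plasma cell marker, was at 1.05 and 0.552 RPKM. In Ad-Cre M2 and F2, where Derl3 was higher at 108 and 146 RPKM, Igkc was at 149 and 212 RPKM. Derl3 had 2.11 RPKM in Ad-LacZ + JNK inhibitor F2, where Igkc was at 1904 RPKM.

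**Figure D2:**
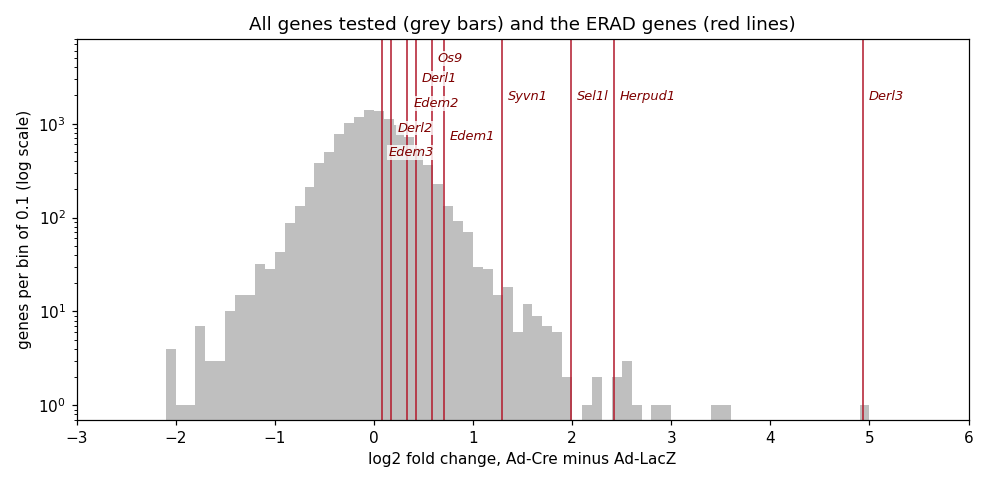
Number of genes (log axis) by log2 fold change of Ad-Cre against Ad-LacZ in bins of 0.1, for all 11590 genes tested (grey bars), with a red line at each ERAD gene. Derl3, Herpud1, Sel1l and Syvn1 stand in the right tail, at 1.29 or above, and Edem3, Derl2 and Edem2 lie among the bulk of genes.

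Members of a family did not move alike. The log2 ratio of Derl3 to Derl1 was -2.62 ± 0.36 in Ad-LacZ and 1.89 ± 0.43 in Ad-Cre (SD, n = 4 each), a difference of 4.51. The ratio of Derl3 to Derl2 differed by 4.76, that of Herpud1 to Syvn1 by 1.13, that of Sel1l to Syvn1 by 0.69 and that of Edem1 to Edem3 by 0.62. For these 5 of 6 ratios the groups did not overlap, and the two-sided exact permutation p was 0.0286, which no test of 4 against 4 can go below, or 0.0343 after adjustment over the 6. Paired by preparation, an exact test cannot pass, since the smallest p that 4 pairs allow is 2 of 16 sign patterns. The log2 ratio of Edem1 to Edem2 differed by 0.37 (exact permutation p = 0.343, n = 4 each). Within preparations, Sel1l rose more than Syvn1 in all 4, by 0.32 in F1 and by 0.75 to 0.92 in the others.

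As a share of the summed RPKM of the 3 derlins, Derl3 made up 5.66% ± 1.62 in Ad-LacZ and 68.1% ± 6.85 in Ad-Cre (SD, n = 4 each). The sum itself went from 34.1 ± 4.10 to 134 ± 46.4 RPKM. The share of Derl1 was 49.2% and 18.0% and that of Derl2 45.1% and 13.9%, although the mean RPKM of neither was lower in Ad-Cre. Edem1 made up 23.5% ± 1.89 of the EDEM sum in Ad-LacZ and 30.1% ± 6.39 in Ad-Cre, while Edem2 held the largest share in both, at 47.2% and 46.2%.

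**Figure D3:**
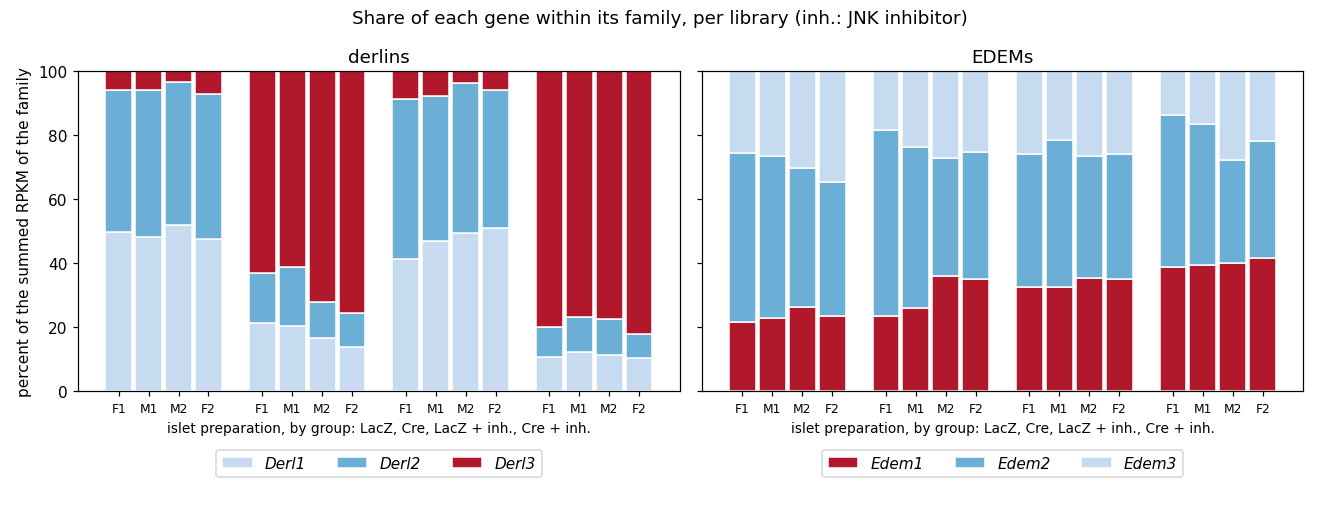
Percent of the summed RPKM of the derlins (left) and EDEMs (right) that each member makes up, one bar per library, 4 libraries in each of 4 treatments (inh., JNK inhibitor). Derl3 is between 3.40% and 8.82% in the 8 libraries with Ad-LacZ and between 61.4% and 82.3% in the 8 with Ad-Cre.

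The order of the levels changed with the treatment. In Ad-LacZ, Os9 (139 ± 25.3 RPKM) and Herpud1 (111 ± 8.68 RPKM) led with overlapping libraries, followed by Edem2 at 50.2 ± 9.58 RPKM. Edem3, Sel1l, Syvn1 and Edem1 formed a run from 30.7 down to 24.7 RPKM in which each overlapped the next, and Derl1, Derl2 and, apart from all others, Derl3 were last. In Ad-Cre, Herpud1 led at 611 ± 162 RPKM with no overlap with Os9 at 208 ± 32.1 RPKM. Sel1l at 120 ± 31.7 and Derl3 at 93.7 ± 41.4 RPKM came next and overlapped. Below them each gene overlapped its neighbour down to Derl2 at 17.5 ± 2.30 RPKM.

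A wider list held 52 other ERAD genes, of which 51 passed the filter. In Ad-Cre against Ad-LacZ, 7 were higher and 2 lower by the adjusted criterion, with a median log2 fold change of 0.09, and 4.33% of all genes were lower by it. With the preparation as a block, 8 were higher, the added gene being Man1b1 (limma's adjusted p = 0.00431), named after its values were seen. Of 8 genes for substrate recognition and lumenal cofactors, 5 rose, with a median of 0.70, among them Creld2 at 3.58 (SE 0.20), Sdf2l1 at 2.89 (SE 0.26) and Dnajb11 at 1.33 (SE 0.15), with limma's adjusted p of 7.92e-05, 0.000907 and 0.00177. Sdf2l1 and Dnajb11 are cofactors of the chaperone BiP. Of 14 other membrane ligases and their partners, 0 passed by either criterion, and the smallest p were those of Fam8a1 at 0.32 (limma's adjusted p = 0.0698), Erlin1 at 0.30 (0.142) and Rnf185 at 0.26 (0.147). Of 5 ubiquitin-conjugating enzymes, 0 passed by either criterion, which both require the fold change. Ube2g2 had 0.44 with limma's adjusted p = 0.0289, Ube2j2 0.17 (0.217) and Ube2k -0.22 (0.219).

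Among 9 genes of the p97 step, Selenok, a partner of p97 at the ER membrane, rose by 0.94 (SE 0.15, limma's adjusted p = 0.00562). Svip, an inhibitor of ERAD that binds p97, fell by 0.75 (SE 0.17, limma's adjusted p = 0.0222). Selenos had 0.55 (limma's adjusted p = 0.0259), under the fold change required. Of 15 genes that handle extracted proteins in the cytosol, Get4 rose by 0.65 (SE 0.13, limma's adjusted p = 0.0149). Usp19 had 0.40 (limma's adjusted p = 0.0563).

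The same virus comparison in the presence of inhibitor used the other 8 libraries. Of the 10 members, 5 rose by the adjusted criterion (7.87% of all 11598 genes) and 6 passed at the unadjusted p (9.75%). In 6 the groups did not overlap (8.93%). Derl3 had 2.32, 2.92, 1.22 and 2.11 RPKM in Ad-LacZ + JNK inhibitor and 137, 125, 82.3 and 189 RPKM in Ad-Cre + JNK inhibitor, a log2 fold change of 5.49 (SE 0.27, limma's adjusted p = 2.97e-05). Herpud1 had 81.3 to 109 and 561 to 861 RPKM, with a log2 fold change of 2.92 (SE 0.21). Sel1l had 28.3 to 35.2 and 110 to 171 RPKM, with 2.13 (SE 0.20), and Syvn1 22.6 to 30.6 and 45.5 to 82.1 RPKM, with 1.41 (SE 0.20). Limma's adjusted p was 0.000148 for Herpud1, 0.000364 for Sel1l and 0.00219 for Syvn1. Mrpl49, which overlaps Syvn1, had a log2 fold change of 0.64 (SE 0.18, limma's adjusted p = 0.0336). Mis12, which overlaps Derl2, had 0.60 (SE 0.13, limma's adjusted p = 0.0118). The part of these overlaps in the Syvn1 and Derl2 values was not tested.

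With inhibitor, the lowest Edem1 library of Ad-Cre was 42.9 RPKM and the highest of Ad-LacZ 42.6 RPKM. Edem1 had a log2 fold change of 0.69 (SE 0.19, limma's adjusted p = 0.0303). This call did not hold without replicate F1, M1 or F2, where limma's adjusted p was 0.102, 0.144 and 0.192, nor without the F2 Ad-Cre + JNK inhibitor library alone (0.0807), nor with no filter on low values (0.0762). Os9 had 218, 224, 125 and 138 RPKM in Ad-LacZ + JNK inhibitor and 387, 365, 239 and 278 RPKM in Ad-Cre + JNK inhibitor. Os9 thus had a log2 fold change of 1.00 (SE 0.32, limma's adjusted p = 0.0534, or 0.00478 when preparations were blocked). With the block, 6 members were called, as were 8.63% of all genes. Derl1, Derl2, Edem2 and Edem3 overlapped between the groups, with log2 fold changes of 0.33, 0.18, 0.41 and 0.10. Of the 51 other ERAD genes tested, 15 were higher and 2 lower, when 6.69% of all genes were lower. Blocked by preparation, 14 were higher, without Usp19 (limma's adjusted p = 0.0623). The 4 duct markers summed to 376 to 909 RPKM in Ad-LacZ + JNK inhibitor and 217 to 305 RPKM in Ad-Cre + JNK inhibitor. Ppy, the marker of PP cells, had 1147 to 1979 and 2065 to 2892 RPKM, and neither the duct sum nor Ppy overlapped. Of the duct markers only Spp1 was without overlap, at 332 to 813 and 155 to 274 RPKM. Of the β cell markers, Ucn3, Mafa, Pdx1, Nkx6-1 and Slc2a2 were lower in Ad-Cre + JNK inhibitor without overlap, while Ins1, Ins2 and Iapp overlapped. The part of these markers in the ERAD values was not tested. Vcp, which encodes p97, and Ufd1, its cofactor, both singled out after their values were seen, were among the 15, at 0.73 (SE 0.21) and 0.61 (SE 0.11), with limma's adjusted p of 0.0364 and 0.00522.

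**Figure D4:**
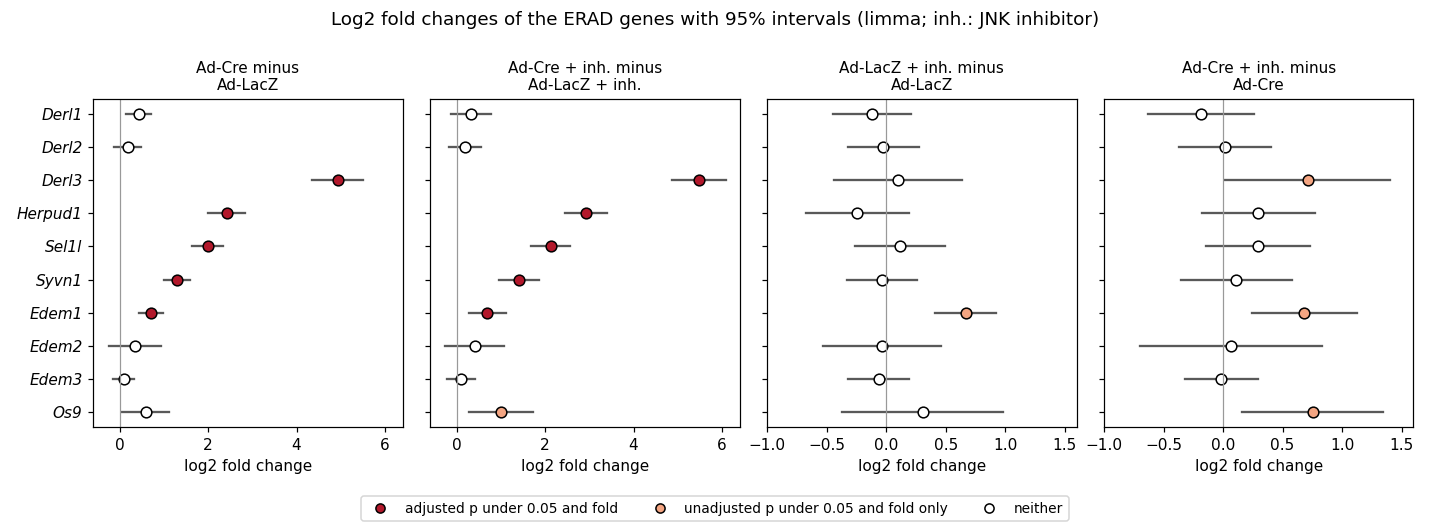
Log2 fold changes of the 10 ERAD genes (points) with 95% intervals (lines) in 4 comparisons from limma, with red points for an adjusted p under 0.05, orange points for an unadjusted p under 0.05 only, each with the required fold change, and white points for neither. The left pair compares the viruses and the right pair, on a narrower axis, the inhibitor. Derl3 stands at 4.93 and 5.49 in the left pair, and Edem1 at 0.67 and 0.68 in the right pair.

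The inhibitor was next compared with its absence, first in Ad-LacZ, where JNK-IN-8 was the only difference in treatment. Edem1, which trims and marks glycoproteins, was the 1 member to pass at an unadjusted p under 0.05 and a fold change above 1.2, as did 2.69% of all 11657 genes. It had 24.4, 25.5, 26.8 and 22.2 RPKM in Ad-LacZ F1, M1, M2 and F2, and 37.9, 42.6, 38.8 and 39.9 RPKM with inhibitor. The groups did not overlap (1.79% of all genes were so placed), and the difference within preparations was 0.52 to 0.74 on the log2 scale. The log2 fold change of Edem1 was 0.67 (SE 0.11, unadjusted p = 0.00025, limma's adjusted p = 0.0925), the 31st smallest p of all genes. With the preparation as a block limma's adjusted p was 0.0445, and 0.249% of all genes were called higher in that fit, with 0.146% in the fit without it. Limma's adjusted p for Edem1 was also under 0.05 with RPKM as deposited (0.0496) and with quantile normalization (0.0199). It was 0.0834 to 0.183 in the other fits of all preparations and 0.262 to 0.540 when each preparation was left out, where the log2 fold change was 0.64 to 0.73.

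The other 9 members did not pass with inhibitor in Ad-LacZ. By the adjusted criterion in limma 0 of 10 passed, and Edem1 alone had an unadjusted p under 0.05. With the preparation as a block, 2 passed at the unadjusted p, Edem1 and Os9. Over all 11657 genes, in either direction, 974 passed with the block and 563 without it. The median log2 fold change of the 10 was -0.03, against -0.02 over all genes. Os9 was higher in all 4 preparations, by 0.06 in F2 to 0.62 in F1, with a log2 fold change of 0.31 (95% interval -0.37 to 0.98). Herpud1 was lower in all 4, with 102, 109, 81.3 and 85.4 RPKM against 114, 121, 101 and 107 RPKM, and a log2 fold change of -0.24 (95% interval -0.67 to 0.19). Derl3 had a log2 fold change of 0.10 (95% interval -0.44 to 0.64). None of the 51 other ERAD genes passed either criterion. The 4 duct markers summed to 136 to 274 RPKM in Ad-LacZ and 376 to 909 RPKM with inhibitor, and the 6 macrophage markers to 52.5 to 59.4 and 87.2 to 120 RPKM. Of the duct markers only Spp1 was without overlap, at 93.0 to 221 and 332 to 813 RPKM, while Krt7, Krt19 and Sox9 overlapped. The part of these markers in the Edem1 value was not tested.

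In Ad-Cre, whose libraries also enter the first comparison, 3 members passed the unadjusted criterion with inhibitor (5.49% of all 11503 genes), all higher, and 0 the adjusted one, which 0.00869% of all genes passed. These were Derl3, Edem1 and Os9. The count was 1 without replicate F1, 0 without replicate M1 and 5 with the preparation as a block. Os9 had 245, 218, 168 and 203 RPKM in Ad-Cre and 387, 365, 239 and 278 RPKM with inhibitor. It was higher in all 4 preparations by a like amount, 0.59 to 0.85 on the log2 scale, although the groups overlapped by 1 library. Its log2 fold change was 0.75 (SE 0.26, unadjusted p = 0.0186, limma's adjusted p = 0.486). With the preparation as a block Os9 was the 1 member called, at limma's adjusted p = 0.0163, where 4.66% of all genes were.

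Edem1 had 33.3, 35.5, 45.7 and 52.0 RPKM in Ad-Cre and 66.1, 64.8, 42.9 and 66.9 RPKM with inhibitor. Preparation M2 alone was lower in RPKM with inhibitor, and the log2 differences after TMM scaling were 1.07, 0.96, 0.21 and 0.49 in F1, M1, M2 and F2. The log2 fold change of Edem1 was 0.68 (SE 0.19, unadjusted p = 0.00654, limma's adjusted p = 0.367, or 0.0533 blocked by preparation). Derl3 likewise was higher with inhibitor in F1, M1 and F2, by 1.27, 1.15 and 0.51, and not in M2, at -0.09. Its log2 fold change was 0.71 (SE 0.31, unadjusted p = 0.0459, limma's adjusted p = 0.621). Cell type markers, singled out after their values were seen, differed too. Sst, of delta cells, had 2464, 1980, 2406 and 1089 RPKM in Ad-Cre F1, M1, M2 and F2. With inhibitor Sst had 3735, 2732, 6660 and 2382 RPKM. In M2, Gcg, of alpha cells, had 13130 RPKM in Ad-Cre and 26503 RPKM with inhibitor. There Ins1 had 12874 and 9022 RPKM, and Ins2 17943 and 22731 RPKM. Their part in the ERAD values was not tested. No member had groups that did not overlap, which 1.86% of all genes had. Herpud1 and Sel1l had 0.29 each, with 95% intervals from -0.18 to 0.77 and from -0.14 to 0.73. With the preparation as a block, both passed the unadjusted criterion (limma's unadjusted p 0.0117 and 0.0149, adjusted p 0.0912 and 0.103). So did 2185 of all genes, in either direction. Without TMM scaling the median over all genes was -0.14 in place of -0.01, and that of the members 0.04 in place of 0.20. With quantile normalization Herpud1 turned to -0.13. Of the 51 other ERAD genes, Creld2, Dnajb11, Selenok, Selenos and Stub1, named after their values were seen, passed the unadjusted criterion, all higher, at 0.74, 0.45, 0.51, 0.47 and 0.45, and 0 the adjusted one in limma. With the block, 6 were called higher and 2 lower. In that fit 778 of all 11503 genes were called in either direction, 536 of them (4.66% of all genes) higher.

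Whether the inhibitor acted differently with the 2 viruses was tested as an interaction over all 16 libraries and 12274 genes. No member passed, with 0 at an unadjusted p under 0.05 and 0 after adjustment in limma. Over all genes 3.13% had an unadjusted p under 0.05. For Edem1 the interaction was -0.01 (95% interval -0.49 to 0.48), where the inhibitor effects were 0.67 in Ad-LacZ and 0.68 in Ad-Cre. These effects share no libraries but come from cultures of the same islet preparations, so they are not independent. For Os9 it was 0.42 (95% interval -0.47 to 1.32), for Derl3 0.59 (-0.28 to 1.47) and for Herpud1 0.51 (-0.09 to 1.12). With the preparation as a block the unadjusted p was 0.0144 for Os9 and 0.0381 for Herpud1, and limma's adjusted p was 0.297 and 0.397. In that fit 1414 of all 12274 genes had an unadjusted p under 0.05, against 384 without the block. The virus effects without and with inhibitor, which form the same interaction, were 4.93 and 5.49 for Derl3, 2.42 and 2.92 for Herpud1 and 0.58 and 1.00 for Os9.

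Over the 4 groups Edem1 had means of 24.7 ± 1.93 RPKM in Ad-LacZ, 39.8 ± 2.06 RPKM in Ad-LacZ + JNK inhibitor, 41.6 ± 8.80 RPKM in Ad-Cre and 60.2 ± 11.5 RPKM in Ad-Cre + JNK inhibitor (SD, n = 4 each). Only Ad-LacZ did not overlap any other group. As a share of the EDEM sum, Edem1 went from 23.5% in Ad-LacZ to 33.8% ± 1.63 with inhibitor, and was 39.9% ± 1.22 with both Ad-Cre and inhibitor. Derl3 made up 79.2% ± 2.44 of the derlin sum there, and Derl3 libraries of Ad-Cre + JNK inhibitor, 77.0% to 82.3%, all lay above those of Ad-Cre, 61.4% to 75.6%. These shares are descriptions and were not tested.

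Across the 16 libraries, the log2 value of each member was set against the mean standardized value of the other 9, as a description in which the points share groups and preparations. Syvn1 followed the others most closely (r = 0.95), then Sel1l (0.91), Herpud1 (0.90) and Derl3 (0.89). Os9 had 0.81, Edem1 0.76, Derl2 0.74, Derl1 0.71 and Edem2 0.68, and Edem3 was least like the rest (0.40). Of 12264 other genes, those most like the mean of the 10 members were Prkcz (r = 0.977), Papss1 (0.976), Gpat4 (0.974), Manf (0.974) and Foxk2 (0.973). Manf encodes a secreted ER stress protein, Papss1 an enzyme of sulfate activation and Gpat4 an enzyme of glycerolipid synthesis in the ER.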

How the data were processed

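Poly(A) RNA of 16 mouse islet cell cultures was sequenced as paired-end reads of 150 bases. The authors aligned the reads to the mouse genome with STAR and counted them per gene, and deposited RPKM. The submitters' processing notes name GRCm38. The step from counts to RPKM, the gene lengths and the strand setting are not given in the sources used here, and 3 columns that no label matched were not used.

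Libraries were grouped by the treatment in their labels. RPKM were scaled by an unweighted trimmed mean of M-values (TMM, trimming 30% of ratios and 5% of levels), and log2(RPKM + 1) was tested with limma 3.58.1 (lmFit and eBayes with trend, R 4.3.3) over genes exceeding 1 RPKM in 4 or more of a comparison's libraries. P-values were adjusted by Benjamini-Hochberg over all genes tested. Calls needed a fold change above 1.5 between viruses or 1.2 for the inhibitor, in either direction. The interaction used all 16 libraries. Ratios within a family were tested by exact two-sided permutation. The code was tested on simulated data. The 10 members were given for this report by symbol, and the gene lists were written with earlier results of these data known. Named genes were the 10 members, Hspa5, Hsp90b1, in each other ERAD list the 3 with the smallest p in Ad-Cre against Ad-LacZ, and the 5 genes most correlated with the members. Any other is said to have been chosen after its values were seen. A gene that this rule names is not reported here.

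Depth was read from the low values, 94.5% to 95.7% of which lay within 3% of a whole number of reads, and was 7.72 to 25.5 times 1000000 reads. Intervals from limma are 95%.

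The replicate labels F1, M1, M2 and F2 mark parallel cultures of the same islet preparation. Deviations from the group means of same-labelled libraries correlated at 0.488 to 0.720 in Ad-Cre against Ad-LacZ, and at 0.131 or above in every other comparison. A fit with the preparation as a block was therefore an alternative to the fit without it. The other alternatives were another pseudocount, other filters, RPKM as deposited, quantile normalization, eBayes without trend, all libraries in a single fit, and leaving out each preparation. Promoter windows came from RefSeq (GRCm38.p6), gene positions from GENCODE (GRCm38).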

Additional observations from a re-analysis of the deposited data

Results flagged for a closer look

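Within each group of 4 libraries, the gap between an extreme library and its nearest neighbour was compared with the whole range, for 10 members in 4 groups. Of 40 groups, 2 were beyond Dixon's critical value at the 95% level, and chance gives about 1 in 20. Derl3 in Ad-LacZ was low in preparation M2, at 1.13 RPKM against 2.08 to 2.24 RPKM in the others, a gap of 0.857 of the range. Edem1 in Ad-Cre + JNK inhibitor was also low in M2, at 42.9 RPKM against 64.8 to 66.9 RPKM, a gap of 0.914 of the range.

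After TMM scaling, the inhibitor effect on Herpud1 had opposite directions with the viruses in every preparation. It was -0.04 to -0.45 in Ad-LacZ and 0.16 to 0.44 in Ad-Cre on the log2 scale, and the mean effects differed by 0.54. Before scaling this did not hold in M2, where Herpud1 had 569 RPKM in Ad-Cre and 561 RPKM in Ad-Cre + JNK inhibitor. The interaction test over all 16 libraries gave 0.51 (SE 0.28, unadjusted p = 0.0896, limma's adjusted p = 0.999), so the difference did not pass. With quantile normalization the effect in Ad-Cre was -0.13.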

How the results depend on the processing

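Of 656 alternative values for single genes and ratios, 597 were counted as the same, 13 newly passed the threshold, 11 no longer did and 35 changed sign. The same means that direction and side of the threshold were kept. For ratios with a preparation left out, it means only that direction was kept and the value moved by less than the SD within groups. No p was judged for those. Derl3, Herpud1, Sel1l and Syvn1 kept both virus calls in all alternatives run. For the unadjusted count of members in Ad-Cre with inhibitor, the value 3 became 5 with the replicate block and ranged from 0 to 3 when each preparation was left out, and the adjusted count 0 became 1 with the block. Over all genes the unadjusted count there went from 898 to 2185 with the block. In Ad-LacZ with inhibitor, the unadjusted count 1 became 2 with quantile normalization and with the block, and the adjusted count 0 became 1 with RPKM as deposited, with quantile normalization and with the block. The number of family ratios that passed, 5, became 0 with the preparations paired as a block and 0 without each preparation, by construction, since the smallest exact p is then 2 of 16 sign patterns for the block and 0.1 without a preparation. The other calls of members that the replicate block changed are printed beside the results. Over all genes in Ad-Cre against Ad-LacZ, 975 passed the adjusted criterion, 583 with no filter on low values and 174 to 715 when each preparation was left out, the fewest without replicate F2. For the inhibitor in Ad-Cre, 2 genes passed it, and 778 with the block. RPKM as deposited moved the median over all genes from -0.03 to -0.14 for the virus with inhibitor.

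No member whose sign changed had passed either criterion in that comparison without the block, and the cause of the changes was not tested. For the inhibitor in Ad-Cre, RPKM as deposited gave Derl2 -0.14, Syvn1 -0.049 and Edem2 -0.093, and quantile normalization gave Derl2 -0.029, Herpud1 -0.13, Syvn1 -0.10 and Edem2 -0.11. For the virus with inhibitor, Edem3 was -0.028 with RPKM as deposited and -0.023 with quantile normalization. For the interaction, RPKM as deposited gave Derl2 -0.12, Syvn1 -0.014, Edem2 -0.060 and Edem3 -0.11, and quantile normalization gave Derl2 -0.011, Sel1l -0.092, Syvn1 -0.048, Edem2 -0.030 and Edem3 -0.033. Leaving out only the F2 Ad-Cre + JNK inhibitor library, an alternative chosen after seeing the data, gave Derl2 -0.00081 for the inhibitor in Ad-Cre and Edem3 -0.025 for the interaction. When each preparation was left out, the inhibitor in Ad-Cre ranged from -0.072 to 0.073 for Derl2 and from -0.054 to 0.027 for Edem3. The inhibitor in Ad-LacZ ranged from -0.24 to 0.047 for Derl1, -0.048 to 0.039 for Derl2, -0.071 to 0.0068 for Edem2 and -0.15 to 0.016 for Edem3. The virus with inhibitor ranged from -6.1e-05 to 0.26 for Edem3. The interaction ranged from -0.29 to 0.11 for Derl1, -0.098 to 0.12 for Derl2, -0.096 to 0.11 for Edem1 and -0.065 to 0.14 for Edem3.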
